A study of Mus musculus with 6 samples.

Results

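The 41 genes described here encode the kinetochore, the protein assembly that ties chromosomes to spindle microtubules, and the spindle checkpoint that acts on it. They were taken as a list of gene symbols and make up 41 of the 21883 protein-coding genes placed on mm10 by the annotation used. They fall into 5 groups. The checkpoint group has 7 genes, the CENP group 16, the NDC80 and MIS12 group with Knl1 and Zwint 10, the SKA group with Knstrn 4, and the chromosomal passenger complex 4. Open chromatin at these genes was compared between urothelial cells of Stag2-WT and Stag2-KO mice by ATAC-seq, in which a transposase cuts accessible DNA. The product of Stag2 is one of the subunits of cohesin, which keeps sister chromatids joined until anaphase. All mice ate a diet with TMX and were taken 1 week after it was started, and the cells were sorted from peeled bladder lining as GFP+ and DAPI- (50000 per condition, batch 1), so both genotypes carry the same exposure. The labels name neither the driver of the recombination, the age of the mice nor the number of animals behind each of the 3 libraries per genotype, and p-values therefore cover only how these 6 libraries vary.

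Kinetochores are built from the chromosome outwards. The histone variant CENP-A marks the centromere, a constitutive set of CENP proteins binds it, and the KNL1, MIS12 and NDC80 complexes of the outer layer bind microtubules, with the SKA complex reinforcing that grip. The kinases TTK and BUB1 and the proteins BubR1, BUB3, MAD1 and MAD2 hold back anaphase until every kinetochore is attached, and the passenger complex with Aurora B releases wrong attachments. Most of these genes are transcribed in G2 and mitosis, and in resting cells many of them are repressed by the DREAM complex, which reads the CHR element of their promoters. The urothelium of an adult bladder is largely quiescent, and the study set out to examine Stag2 loss in that resting state.

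Each library had its own list of peaks with a fold over the local background, given by the authors' peak caller. Each list was reduced to distinct intervals and ranked by fold, so that rank 1 is the interval of highest fold. The best 100000 were kept, and a gene end received the rank of the best interval within 1 kb of it, or the place just after the last ranked interval where there was none. Of the 2 ends of a gene, the one that scored better on average over the 6 libraries was used. A log2 rank gain of 1 means that the rank number in Stag2-KO was smaller by a factor of 2, that is, better. The lists held 181987 to 299636 peaks, read depth is not known from them, and the fold at rank 100000 was 3.65 to 5.30. Gene ends made up 20.8% ± 0.43 of the best 50000 intervals in Stag2-WT and 22.9% ± 1.09 in Stag2-KO (SD, n = 3 each, exact permutation test, two-sided p = 0.1, the smallest this design allows). The median gain of the 14286 tested gene ends was 0.21. Group medians are set against it, while the gain and p-value of each gene refer to 0 and so include this shift. Of the 12 urothelial markers examined 9 (75%) had an interval in all 6 libraries, against 59.3% of all protein-coding genes. The counts were 2 of 7 for fibroblast, 3 of 5 for smooth muscle (60%), 0 of 5 for endothelial and 2 of 6 for immune markers. Among the best 50000 of every library the shares were 33.3% for urothelial, 40% for smooth muscle and 16.7% for immune markers. They were 0 for fibroblast and endothelial markers and 43.0% over all genes. The counts do not by themselves show which cells were present. Genes without an interval in any library, among the best 100000 and within 1 kb of either end, included Ptprc of the immune list. The urothelial marker Trp63 and the housekeeping genes Actb and Ywhaz were also among them. Intervals inside these genes were not examined, and a missing interval does not show that a cell type was absent. The end of Stag2 held ranks 29586, 34076 and 28720 in Stag2-WT and 16287, 20829 and 26329 in Stag2-KO (gain 0.57 ± 0.31, SE, n = 3 per group, limma adjusted p = 0.432). An interval at a gene end does not check a deletion inside the gene.

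All 41 genes were open in all 6 libraries, and none of them differed between the genotypes past the threshold. Every member had an interval within 1 kb of the end used among the best 100000 in each library, and 39 of the 41 had one among the best 50000 of every library. Over all protein-coding genes these shares were 59.3% and 43.0%. The median rank of the members was 7839 to 14145 in the Stag2-WT libraries and 9017 to 11878 in the Stag2-KO libraries, against 20574 to 29844 for all tested gene ends. Seen as a percentile of the mean rank score among tested gene ends, 23 members lay above the 75th and 10 above the 90th. Limma called 0 members higher and 0 lower at an adjusted p of 0.05, where 0.0210% of all gene ends were called higher and 0.0490% lower. At an unadjusted p below 0.05, 2 members (4.88%) ranked higher in Stag2-KO, Bub1 and Cenpc1, and 1 (2.44%) ranked lower, Bub1b. The same counts over all gene ends were 10.5% and 2.20%. These shares of the members were below and near the background.

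**Figure D1:**
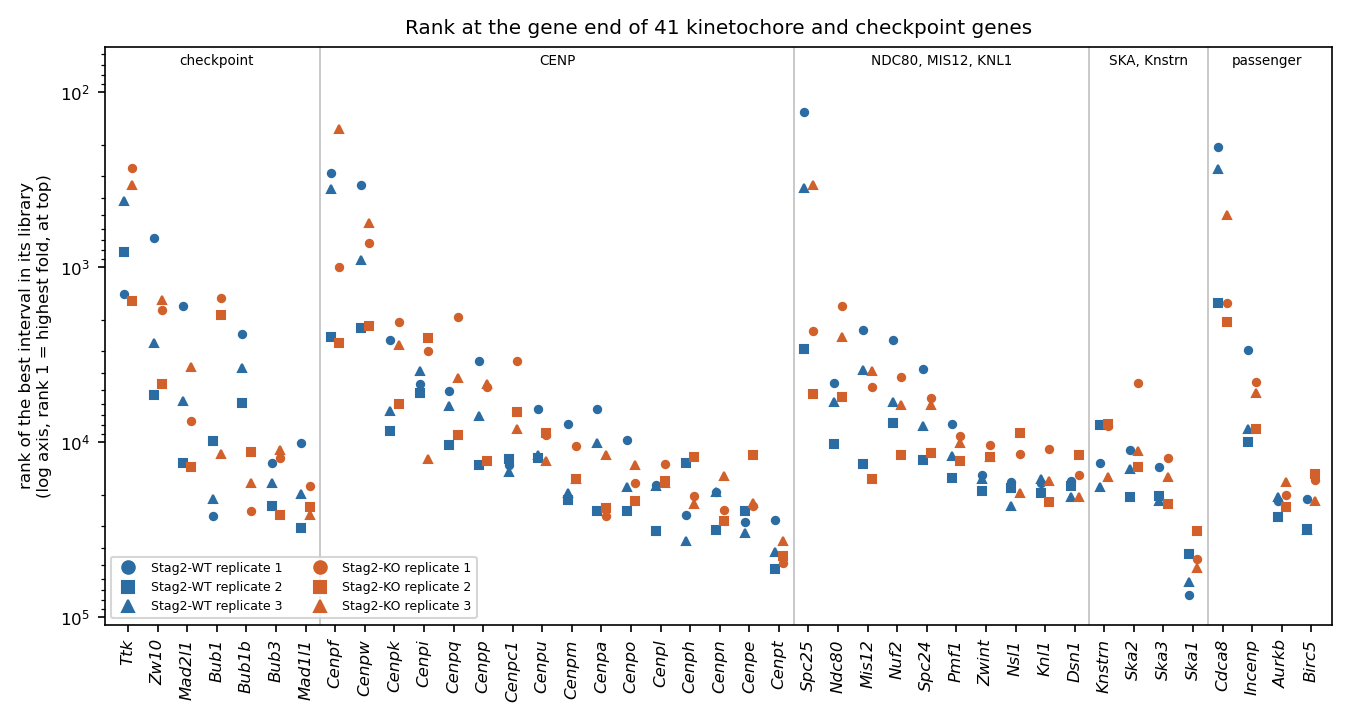
Rank of the best interval at the gene end for each of the 41 genes (log axis, better ranks at the top), by library, with genes sorted by mean rank score within each of the 5 groups. All members were ranked in every library, from rank 129 for Spc25 in Stag2-WT replicate 1 to rank 74883 for Ska1 in the same library, and the genotypes overlap at most genes.

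The checkpoint group held the widest range of gains. Bub1b encodes BubR1, which joins MAD2 and BUB3 in the inhibitor of the anaphase-promoting complex. The interval at its end (chromosome 2, 118598202, the lower end of the span in mm10) held rank 2405, 5929 and 3759 in Stag2-WT and rank 24553, 11390 and 17145 in Stag2-KO. All 3 Stag2-KO libraries lay below all 3 Stag2-WT libraries, as at 2.06% of all gene ends. The folds were 23.0, 31.5 and 25.1 in Stag2-WT and 14.2, 27.1 and 16.6 in Stag2-KO, each on the scale of its own list. The gain was -2.16 ± 0.54 (SE, n = 3 per group, limma adjusted p = 0.263, unadjusted p = 0.00124), short of the threshold over all gene ends. Ranked by p in place of fold, the same end held 7008, 7205 and 6465 in Stag2-WT and 30313, 21508 and 23284 in Stag2-KO, and there it was called lower (gain -1.85 ± 0.30, limma adjusted p = 0.0430, with 0.0701% of gene ends called lower). By fold it was called only without Stag2-WT replicate 2 (limma adjusted p = 0.0223, with 0.784% of gene ends called lower). Over the alternatives on the log2 scale that score this end the gain was -2.61 to -1.84, and the limma adjusted p was 0.0223 to 1.00.

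Width, summit position and other intervals of Bub1b were read as well. The interval was 605, 576 and 554 bp wide in Stag2-WT and 540, 549 and 503 bp in Stag2-KO, narrower without overlap, as at 22.8% of gene ends ranked in all libraries. The median width of the best 50000 intervals was likewise smaller in Stag2-KO, at 435 ± 12.5 bp against 480 ± 25.0 bp in Stag2-WT (SD, n = 3 each, exact permutation test, two-sided p = 0.1), so the width at Bub1b is not particular to it. Its summit lay at -30, -34 and -32 bp from the gene end in Stag2-WT and at -12, -4 and -9 bp in Stag2-KO. Summits of the genotypes did not overlap at 7 of the 41 members (17.1%), against 16.0% of gene ends. The median shift at Bub1b was 23 bp, while at the other 6 it was 3 to 16 bp in size. The far end of Bub1b (118641592) had a weaker interval of rank 70173, 38050 and 49150 in Stag2-WT and none among the best 100000 of any Stag2-KO library (gain -0.98 ± 0.24, SE, limma adjusted p = 0.271). Inside the gene, 118601901 to 118602204 showed the opposite, with no interval among the best 100000 in Stag2-WT and ranks 44951, 61036 and 84912 in Stag2-KO (gain 0.70 ± 0.22, limma adjusted p = 0.271). The SE of both rests on 1 genotype, since libraries without an interval share the same last place.

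The promoter windows of the members with the smallest unadjusted p in each direction are shown because an open interval overlapped each of them in all 6 libraries. The intervals contained the whole window in all 6 libraries at Cenpa and Cenpc1, in 4 at Bub1 and in 0 at Bub1b and Spc25. At Bub1b they began at 118597987 to 118598037, inside the window, and at Spc25 they ended at 69206435 to 69206438, so the outermost bases of these windows lay outside. They run from 250 bases before to 50 bases after the annotated start, from RefSeq (GRCm38.p6, whose coordinates are those of mm10). Capitals mark exact matches on either strand to the CHR element (TTTGAA or TTCGAA), the CCAAT box (CCAAT) and, where present, an E2F site (TTTCCCGC, TTTCGCGC, TTTGCCGC or TTTGGCGC). Bub1b (chr2:118597961-118598260, plus strand) and Cenpa (chr5:30666636-30666935, plus strand) had negative gains, as had Spc25 (chr2:69206164-69206463, minus strand). Bub1 (chr2:127831810-127832109, minus strand) and Cenpc1 (chr5:86065534-86065833, minus strand) had positive gains. Of these differences only those of Bub1b, Bub1 and Cenpc1 had an unadjusted p below 0.05.
Bub1b: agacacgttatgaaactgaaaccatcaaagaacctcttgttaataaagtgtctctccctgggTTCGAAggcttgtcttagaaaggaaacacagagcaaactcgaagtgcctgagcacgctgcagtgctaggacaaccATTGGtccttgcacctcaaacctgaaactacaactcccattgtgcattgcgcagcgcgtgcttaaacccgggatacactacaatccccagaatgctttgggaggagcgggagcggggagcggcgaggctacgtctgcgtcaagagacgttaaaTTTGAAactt
Cenpa: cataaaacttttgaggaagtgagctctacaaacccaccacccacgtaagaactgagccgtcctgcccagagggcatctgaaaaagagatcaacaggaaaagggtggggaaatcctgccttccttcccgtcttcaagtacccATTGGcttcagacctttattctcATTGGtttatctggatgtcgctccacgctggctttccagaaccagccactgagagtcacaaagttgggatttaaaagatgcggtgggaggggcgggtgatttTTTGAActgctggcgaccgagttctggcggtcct
Spc25: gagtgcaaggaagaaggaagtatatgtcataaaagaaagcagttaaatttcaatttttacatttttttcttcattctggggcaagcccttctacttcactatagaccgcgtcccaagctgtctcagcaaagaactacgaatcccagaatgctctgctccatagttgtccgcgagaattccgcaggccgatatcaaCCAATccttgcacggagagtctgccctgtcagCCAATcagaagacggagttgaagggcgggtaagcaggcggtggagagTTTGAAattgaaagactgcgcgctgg
Bub1: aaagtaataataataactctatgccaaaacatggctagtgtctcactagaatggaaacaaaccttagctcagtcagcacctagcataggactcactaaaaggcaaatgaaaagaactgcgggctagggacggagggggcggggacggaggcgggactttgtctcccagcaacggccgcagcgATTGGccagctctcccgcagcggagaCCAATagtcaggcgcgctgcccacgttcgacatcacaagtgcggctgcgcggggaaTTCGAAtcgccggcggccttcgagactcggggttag
Cenpc1: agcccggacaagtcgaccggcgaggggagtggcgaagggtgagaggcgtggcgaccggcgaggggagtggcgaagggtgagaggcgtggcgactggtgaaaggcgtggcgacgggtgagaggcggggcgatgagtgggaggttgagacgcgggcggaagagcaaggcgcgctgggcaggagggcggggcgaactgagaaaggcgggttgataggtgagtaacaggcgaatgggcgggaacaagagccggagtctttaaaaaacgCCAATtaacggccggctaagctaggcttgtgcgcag
A CHR match began 41 bases after the start in Bub1b, 17 in Cenpa and 25 in Spc25, each as TTTGAA, and 15 in Bub1, as TTCGAA. Bub1b and Bub1 thus both hold a CHR match near the start and a CCAAT match before it, and their gains had opposite signs. Cenpc1 held a CCAAT match and no CHR match in this window.

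Bub1 encodes the kinase that brings BubR1 and the passenger complex to the centromere. Its upper end held rank 26329, 9883 and 21199 in Stag2-WT and rank 1491, 1864 and 11713 in Stag2-KO. Stag2-KO replicates 1 and 2 lay above every Stag2-WT library, and replicate 3 lay below Stag2-WT replicate 2. The gain was 2.47 ± 0.73 (SE, limma adjusted p = 0.298, unadjusted p = 0.00423). Bub1 passed the threshold at 3.41 when Stag2-KO replicate 3 was left out (limma adjusted p = 0.0185), in a fit with calls at 3.92% (higher) and 0.889% (lower) of gene ends. It also passed at 2.89 when Stag2-WT replicate 2 was left out (limma adjusted p = 0.0313, with 1.06% of gene ends called higher). With each library's share of intervals at gene ends in the model, the gain of Bub1 was 0.21 ± 1.21, and ranked by p it was 0.93 ± 0.37. Neither was called (limma, with 0.00700% and 0.0350% of gene ends called higher). The share did not overlap between the genotypes (20.5% to 21.3% in Stag2-WT, 21.6% to 23.5% in Stag2-KO). The model with it therefore cannot tell share and genotype apart.

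**Figure D2:**
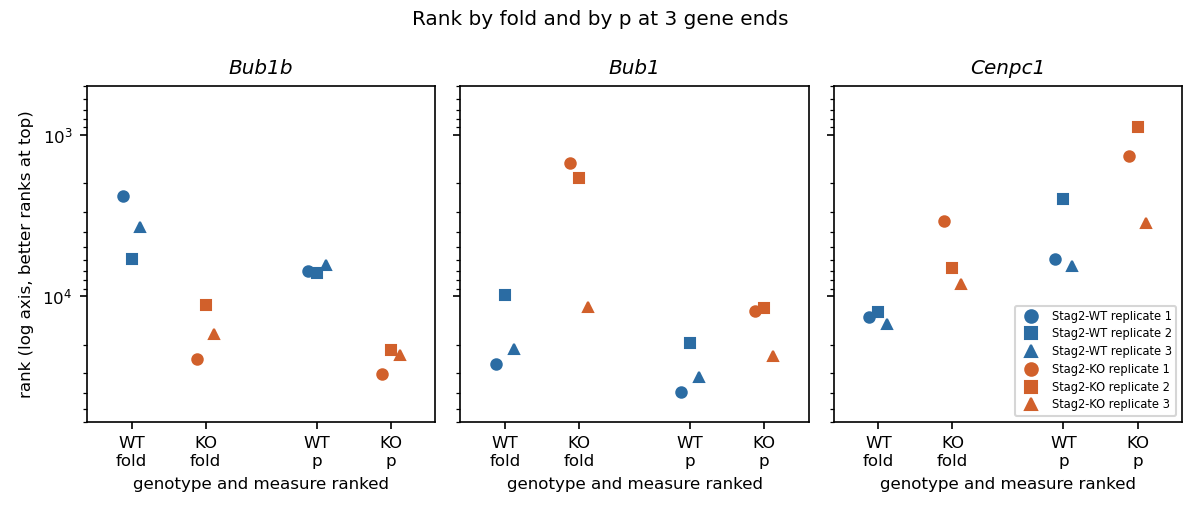
Ranks at the ends of Bub1b, Bub1 and Cenpc1 in each library, by fold and by p (log axis, better ranks at the top). The genotypes separate without overlap at Bub1b by either measure, at Cenpc1 by fold, and at Bub1 by neither.

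The other checkpoint genes showed no difference beyond their spread. Ttk, the kinase that starts checkpoint signalling, had the lowest mean rank number of this group, with 1422, 820 and 417 in Stag2-WT and 272, 1555 and 340 in Stag2-KO (gain 0.59 ± 1.07, SE). Zw10, part of the complex that recruits MAD1 and MAD2, held rank 678 to 5384 in Stag2-WT and 1540 to 4642 in Stag2-KO (gain -0.11 ± 0.89). Mad2l1 (MAD2) and Mad1l1 (MAD1) had gains of -0.54 ± 0.75 and -0.27 ± 0.41, and Bub3 had 0.18 ± 0.42. Ranks at strongly open ends such as Ttk spread widely between libraries while the folds did not. At Ttk the folds were 24.7 to 40.6, and at Spc25 ranks from 129 to 5302 corresponded to folds of 29.7 to 35.4.

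The CENP group had a median gain of 0.05 over 16 genes, 10 positive and 6 negative, with none called. Cenpc1 encodes CENP-C, which links CENP-A nucleosomes to the outer kinetochore. Its upper end held rank 13447, 12477 and 14804 in Stag2-WT and 3417, 6737 and 8364 in Stag2-KO. Every Stag2-KO library ranked above every Stag2-WT library, and the gain was 1.23 ± 0.50 (SE, limma adjusted p = 0.348, unadjusted p = 0.0272). Of all gene ends 15.2% had Stag2-KO above Stag2-WT without overlap. The members that did were 4 of 41 (9.76%), and Cenpe and Cenpl of this group were also among them. Cenpe encodes the kinesin that carries chromosomes to the spindle equator and held rank 28534, 24628 and 32743 in Stag2-WT and 23084, 11817 and 22170 in Stag2-KO (gain 0.64 ± 0.35). Cenpl, a subunit next to CENP-N, had a gain of 0.47 ± 0.37 by fold and -0.46 ± 0.40 when ranked by p, uncalled in both.

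Within the constitutive centromere network (CENP-C, H, I, K, L, M, N, O, P, Q, T, U and W), the 13 genes had a median gain of 0.07 and a range from -0.13 to 1.23. Cenpw, a histone-fold partner of CENP-T, had the lowest mean rank number of the CENP group, with 338, 2230 and 910 in Stag2-WT and 722, 2159 and 554 in Stag2-KO. Cenpt lay at the other extreme, with ranks of 27672, 52600 and 42164 in Stag2-WT and 48830, 44852 and 36371 in Stag2-KO. The products of these genes bind each other, yet the openness of their gene ends differed by more than the spread between libraries, while their gains did not (-0.11 ± 1.03 and -0.13 ± 0.28). Cenpa, the centromeric histone, had the most negative gain of the group, with rank 6459, 24573 and 10077 in Stag2-WT and 26214, 23742 and 11788 in Stag2-KO (gain -0.73 ± 0.51). The genotypes overlapped. Its summit of best fold lay at -81, -79 and -77 bp from the gene end in Stag2-WT and at -81 bp in Stag2-KO replicate 3. In Stag2-KO replicates 1 and 2 it lay at 257 and 259 bp. The Cenpa interval held 3 summits in every library, so these positions do not show that a summit moved. Cenpf, which encodes a large corona protein, held rank 290, 2511 and 357 in Stag2-WT and 1001, 2716 and 162 in Stag2-KO (gain -0.25 ± 1.24).

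By fold, the NDC80 and MIS12 group had a median gain of 0.13 over 10 genes, 6 positive and 4 negative. The group had 0 called and 0 at an unadjusted p below 0.05 (limma). Its extremes were subunits of 1 complex. Ndc80, the microtubule-binding subunit, held rank 4589, 10277 and 5860 in Stag2-WT and 1657, 5513 and 2514 in Stag2-KO (gain 1.20 ± 0.67, SE). Spc25, on the centromere side of the same complex, held rank 129, 2911 and 353 in Stag2-WT and 2307, 5302 and 338 in Stag2-KO (gain -1.65 ± 1.29). The genotypes overlapped at both by fold. Ranked by p, Ndc80 held 3718, 3855 and 4341 in Stag2-WT and 1384, 1513 and 2389 in Stag2-KO. That difference had an unadjusted p below 0.05 (limma). Nuf2 and Spc24, the partners of Ndc80 and Spc25, had gains of -0.46 ± 0.63 and -0.01 ± 0.58 by fold. In the MIS12 complex, which joins the inner and outer layers, the gains were -0.46 ± 0.75 for Mis12, 0.24 ± 0.37 for Dsn1, 0.61 ± 0.41 for Nsl1 and 0.11 ± 0.45 for Pmf1. Knl1, the scaffold on which BUB proteins assemble, had 0.14 ± 0.38. Its partner Zwint held rank 15398, 18838 and 16114 in Stag2-WT and 10362, 12187 and 12135 in Stag2-KO, without overlap (gain 0.54 ± 0.38), and 0.01 ± 0.32 when ranked by p.

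In the SKA group all 4 gains were positive, with a median of 0.38, and none was called or had an unadjusted p below 0.05 (limma). Knstrn, a microtubule-binding partner of astrin, had the lowest mean rank number, with 13183, 7904 and 18065 in Stag2-WT and 8049, 7879 and 15674 in Stag2-KO (gain 0.31 ± 0.48). Ska2 had the largest gain, with rank 11118, 20467 and 14145 in Stag2-WT and 4593, 13894 and 11214 in Stag2-KO (0.72 ± 0.50 by fold, and -0.51 ± 0.44 when ranked by p). Ska3 had the smallest, with rank 13848, 20352 and 21641 against 12304, 22477 and 15694 in Stag2-KO (0.16 ± 0.38). Ska1 had the highest mean rank number of all members, with rank 74883, 43164 and 63113 in Stag2-WT. In Stag2-KO it held 46468, 32288 and 52426 (0.46 ± 0.27), and its folds were at most 16.4. Cenpt ranked worse than Ska1 in Stag2-WT replicate 2 and in Stag2-KO replicates 1 and 2, and its folds were at most 12.3.

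The passenger complex spanned a wide range of openness. Cdca8, which encodes borealin, was among the best ranked members, with 206, 1589 and 274 in Stag2-WT and 1600, 2048 and 499 in Stag2-KO (gain -1.40 ± 1.10, SE). Ranked by p, the gain of Cdca8 was -1.23 ± 0.51 (limma unadjusted p = 0.0315, adjusted p = 0.249). Birc5 (survivin), which docks the complex on centromeric histone marks, held rank 21017, 31383 and 31659 in Stag2-WT and 16479, 15246 and 21566 in Stag2-KO (gain 0.65 ± 0.33). The genotypes overlapped at both. Aurkb, the catalytic kinase, had a gain of 0.19 ± 0.32 and the scaffold Incenp 0.11 ± 0.61. The median over the 4 genes was 0.15.

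By group, the median gain lay 0.33 below the median of all gene ends for the checkpoint genes (-0.33), 0.16 below it for CENP genes (-0.16), 0.09 for the NDC80 and MIS12 genes (-0.09) and 0.06 for the passenger complex (-0.06), and 0.17 above it for the SKA genes. Over the 41 members it was 0.11, or 0.10 below the median of all gene ends (-0.10), with 26 positive (63.4%) and 15 negative gains, against 68.9% positive over all gene ends. Leaving out single libraries took the difference of the checkpoint group from -0.78 to 0.13 and that of all members from -0.23 to 0.07, so neither kept its sign over the libraries. The balance of all gene ends itself differed between the settings. At an unadjusted p below 0.05, 1500 gene ends were higher and 314 lower. Ranks taken among gene ends alone gave 633 (4.43%) and 632 (4.42%, median gain 0.01). Such ranks hold nearly the same values in every library, so a balance between the directions is largely built into them. A model with the share of intervals at gene ends gave 100 (0.700%) and 126 (0.882%, median -0.02). There the share cannot be told apart from genotype. With the replicate number as a block, 8 members had an unadjusted p below 0.05 as higher (19.5%, with 21.5% of all gene ends) and 1 as lower (2.44%, with 4.46%). The 8 were Bub1, Cenpc1, Cenpe, Ndc80, Nsl1, Ska1, Ska2 and Birc5, and the 1 was Bub1b. No member was called with the block (limma, smallest adjusted p = 0.108 for Bub1 and Bub1b, with 0.0140% of gene ends called higher and 0.0490% lower).

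**Figure D3:**
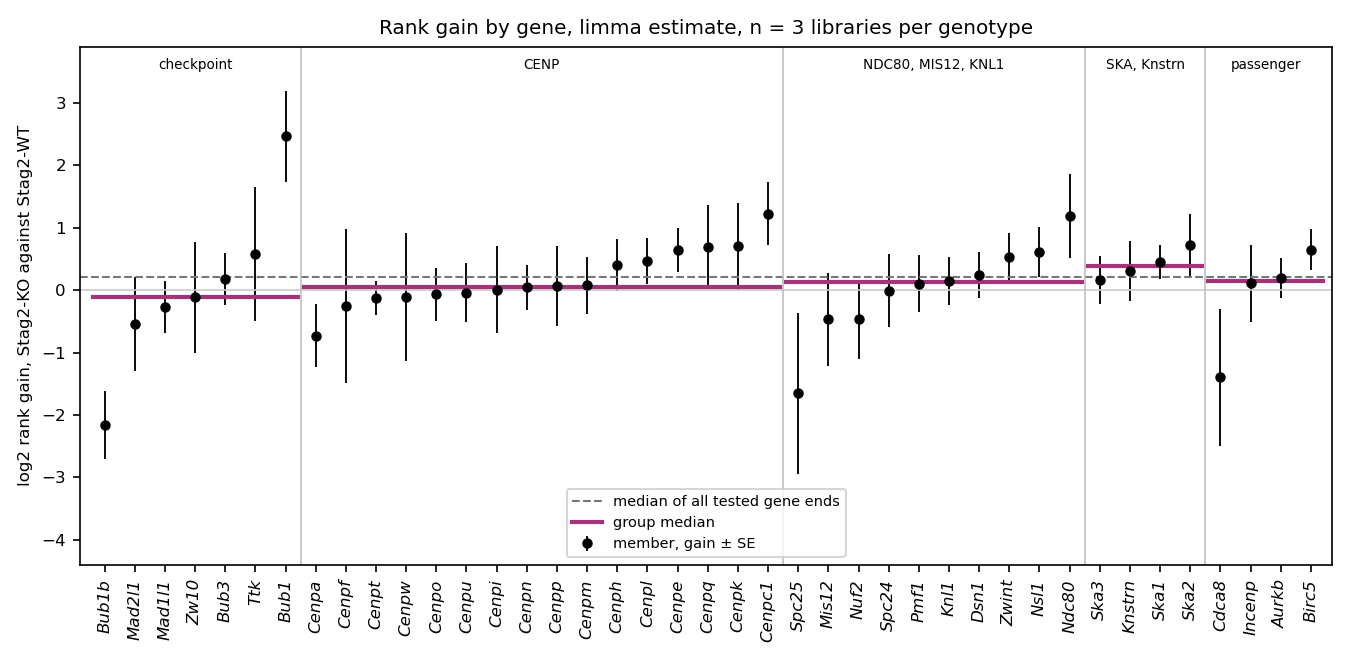
Log2 rank gain of each member (points, with SE as bars, n = 3 libraries per genotype), its group median (purple) and the median of all tested gene ends (dashed, 0.21). Bub1b at -2.16 and Bub1 at 2.47 lie farthest from the dashed line, and no member passed the adjusted threshold.

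The libraries held a recurring order over the members. Stag2-WT replicate 1 had the best rank of its genotype at 31 of 41 members (75.6%, and 60.2% of gene ends ranked in all libraries), and Stag2-WT replicate 2 the worst at 30 (73.2%, and 58.1%). Within Stag2-KO, replicate 2 had the worst rank at 24 members (58.5%, and 47.2%).

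The members shared several features of position. In all 36 members whose strand the promoter table gives, the end used was the one at which transcription enters the annotated span, as for 88.1% of tested genes. The start in the promoter table lay within 50 bp of that end in 28 of these members and within 500 bp in 35, and at Cenpt it lay 3078 bp away. Over all 41 members, the summits lay within 150 bp of the end used in 201 of 246 member-library pairs, at a median distance of 64.5 bp and at most 356 bp. The far end held no interval among the best 100000 of any library in 37 of the 41 genes. In 14 members (34.1%, and 22.4% of tested gene ends), another protein-coding gene began or ended within 1 kb, so their interval cannot be assigned to 1 gene. Examples are Mad1l1 with Nudt1 at 14 bp, Cenpt with Thap11 at 17 bp, Ndc80 with Spdya at 38 bp and Cdca8 with 9930104L06Rik at 67 bp. Bub1b, Bub1 and Cenpc1 had no such neighbour. The intervals were 771 to 811 bp wide in the median of Stag2-WT libraries and 712 to 776 bp in Stag2-KO. At all tested gene ends these ranges were 773 to 799 bp and 710 to 767 bp. At 10 members (24.4%, and 22.8% of gene ends) the interval was narrower in every Stag2-KO library than in any Stag2-WT library, among them Bub1b, Ndc80, Ska2, Mad2l1 and Cdca8. Ska2 went from 858 ± 10.6 bp in Stag2-WT to 715 ± 5.2 bp in Stag2-KO (SD, n = 3). Cenpa was the 1 member (2.44%, and 2.15% of gene ends) with a wider interval in every Stag2-KO library.

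Promoter windows of 36 members were found in the RefSeq table, and those of Aurkb, Incenp, Nsl1, Spc24 and Ska1 were not. No interval of the gene end overlapped the window of Cenpt. A separate region inside the gene (105851496 to 105852173) did, with rank 48944, 59425 and 53329 in Stag2-WT and 42952, 52820 and 46339 in Stag2-KO. A CHR match was present in 17 of the 36 (47.2%), against 16.1% of the 11341 tested genes with a window, and a CCAAT match in 23 (63.9%, against 42.4%). Both were present in 13 (36.1%, against 7.90%), and an E2F match as spelled above in 3 (8.33%, against 4.36%), Cenpl, Cenpm and Dsn1. In Cdca8 and Cenpw a CHR match overlapped a CCAAT match. A CHR match began within 50 bases of the start in 13 members, Bub1, Bub1b, Bub3, Ttk, Cenpa, Cenpf, Cenpn, Cenpw, Ndc80, Spc25, Knl1, Ska3 and Cdca8. Their median gain was 0.04, with 6 negative and 7 positive, and that of the other 23 was 0.11, with 8 negative and 15 positive. Over all tested genes the medians were 0.12 with and 0.21 without such a match. These are counts of letters in a window and do not show that a factor was bound.

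Beyond the ends, 69 further regions lay inside 22 of the member genes, 26 of them in Mad1l1, which spans 140008689 to 140321608 on chromosome 5. None was called among the 100565 regions tested (limma, adjusted p below 0.05, 0.0119% of all regions higher and 0.00895% lower). At an unadjusted p below 0.05, 8 were higher (11.6%, with 6.97% of all regions) and 7 lower (10.1%, with 7.84%). A region inside Knstrn (chromosome 2, 118821639 to 118822146) held rank 32065, 14125 and 38254 in Stag2-WT. In Stag2-KO it held 92194, 43357 and, in replicate 3, no interval among the best 100000. Its gain was -1.51 ± 0.45 (limma adjusted p = 0.266), while the start of Knstrn had a gain of 0.31. A region inside Nuf2 (chromosome 1, 169520255 to 169520788) held rank 379, 1438 and 643 in Stag2-WT and 12621, 9638 and 1052 in Stag2-KO (gain -2.84 ± 1.00). A region inside Cenpp (chromosome 13, 49549585 to 49550021) held 2974, 690 and 193 in Stag2-WT and 21280, 43819 and 1161 in Stag2-KO (gain -3.81 ± 1.33). At both, Stag2-KO replicate 3 lay within the Stag2-WT range and the other Stag2-KO libraries below it. Inside Zwint (chromosome 10, 72671583 to 72672009) the ranks were 5310, 2672 and 3536 in Stag2-WT and 1036, 833 and 2330 in Stag2-KO (gain 1.55 ± 0.70, limma adjusted p = 0.336). The most open region of all was inside Cenpu (chromosome 8, 46573954 to 46574490), at rank 478 to 1962 in Stag2-WT and 1042 to 2214 in Stag2-KO. These regions were named after their values were seen.

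Knstrn and Knl1 lie on the same stretch of chromosome 2 as Bub1b, at 215786 and 448917 bp from its start. Bub1b was taken as the centre because it had the smallest p of the members, so its low gain here is no separate evidence. The 19 other tested gene ends within 500 kb of Bub1b had a median gain of 0.33, with 16 positive and 3 negative. Over all gene ends 68.9% were positive. None of the 19 was called (limma, 3 at an unadjusted p below 0.05). Those 3 were Inafm2 at 0.66 ± 0.24 and Fsip1 at 1.29 ± 0.60, both higher, where 10.5% of all gene ends were, and Plcb2 at -0.47 ± 0.22, lower, where 2.20% were. The other negative gains were -1.39 ± 1.28 for Ivd and -0.24 ± 0.58 for Ccdc32. Bmf, at an offset of -69445 bp, had 0.09 ± 0.39, and Pak6, at 64843 bp, had 0.47 ± 0.30.

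**Figure D4:**
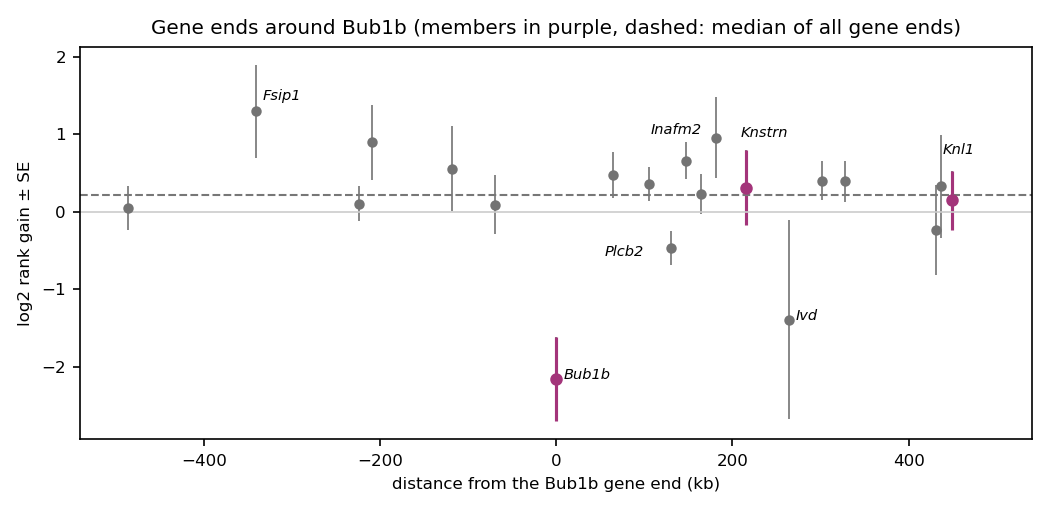
Log2 rank gain (points, with SE as bars) of the 20 tested gene ends within 500 kb of Bub1b, by distance in kb, with the members Bub1b, Knstrn and Knl1 in purple and the median of all gene ends dashed. Bub1b, chosen as the centre for its smallest p among the members, is the lowest point at -2.16. Of the 19 others 16 have positive gains, and of all gene ends 68.9%.

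Other genes of the pathway gave no calls either. The best 50000 of every library held 70.8% of the further kinetochore genes and 90.5% of the anaphase-promoting complex list. They held 95.1% of the members and 43.0% of all genes. Of 24 further centromere and kinetochore genes, 22 were tested and 20 were ranked in all 6 libraries. Sgo1 and Sgo2a, which protect centromeric cohesin, had no interval among the best 100000 of any library within 1 kb of either end. None of the 22 was called (limma), and 1 had an unadjusted p below 0.05, Cenpv at 0.64 ± 0.26. The median gain was 0.18. Cenpb, which binds a centromeric repeat, had 0.41 ± 0.21, and the smallest p among negative gains belonged to Plk1, a mitotic kinase, at -0.49 ± 0.32, and to Ppp2r5a, a phosphatase subunit, at -0.47 ± 0.45. Of 21 genes of the anaphase-promoting complex and its regulators and substrates, the target of the checkpoint, 20 were tested and none was called or had an unadjusted p below 0.05 (limma), with a median gain of -0.09. Espl1 encodes separase, the protease that cuts cohesin. It held rank 98, 100 and 94 in Stag2-WT and 1420, 247 and 156 in Stag2-KO (gain -1.96 ± 1.26). Stag2-KO lay below Stag2-WT without overlap, as at 2.06% of all gene ends. Cdc23 had -1.24 ± 0.62, Cdc16 0.84 ± 0.44 and Fzr1 0.71 ± 0.40. Of 10 housekeeping genes 8 were tested, with a median gain of 0.25 and none called or at an unadjusted p below 0.05.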

How the data were processed

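Peak lists of 6 ATAC-seq libraries were used, 3 Stag2-WT and 3 Stag2-KO, one list per library. The file names, as deposited by the authors, read as trimmed reads without duplicates or mitochondrial reads, Tn5 positions, a p threshold of 0.01, a limit of 300K peaks and a blacklist filter. Per the submitters' processing notes, the build was mm10 and DiffBind is named. The aligner and the peak caller are not stated in what was read here. Each list deposited by the authors holds a fold over local background (a ratio), −log10 p, −log10 q, the summit position and a display score, which was not used. No sequencing depth was given.

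Intervals sharing several summits were reduced to 1 with its best fold. Ranks of the best 100000 per library were assigned to the ends of protein-coding genes (RefSeq, GRCm38.p6, windows of 1000 bp), and −log2 ranks of ends with an interval in at least 3 libraries were fitted with limma 3.58.1 (R 4.3.3, variance trend, Benjamini-Hochberg over 14286 gene ends, threshold 0.05). Regions are merged intervals tested likewise. Python 3.11.15, NumPy 2.4.6, pandas 2.3.3, SciPy 1.17.1 and matplotlib 3.10.9 were used. The scoring was tested against bedtools on simulated intervals. In a simulation of Stag2-KO against Stag2-WT over 14286 gene ends, gains of 2 and 4 were recovered in 64% and 93% of 100 ends each. Of the unchanged ends 6 were called. The noise was drawn independently for each end and library, without shifts shared by the ends of a library or a last place. The rates therefore check the fit and do not give the power in these data.

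Deviations from the genotype means over gene ends correlated at r = 0.182, 0.729 and 0.466 between libraries with replicate number 1, 2 and 3. A block by replicate number was therefore fitted as an alternative. The main fit held genotype alone, so its gains, SEs and p-values are unpaired. The pairing rests on the data, not the labels, and Stag2-WT replicate 1 correlated better with Stag2-KO replicate 3 (0.502). The 41 members and the lists were chosen with earlier results of these data known. Values in every library are given for members with an unadjusted p below 0.05 and, per group, for the best mean rank and both extremes of gain. A few others are named after their values were seen, among them all summit positions. Other lists give the members with the smallest p per direction. The alternatives were another ranking measure, list length, scale, window, filters, q threshold, gene end, ranks among gene ends, a covariate, a replicate block and leaving out each library. A set of members without a shared end was added after seeing the data.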

Additional observations from a re-analysis of the deposited data

How the results depend on the processing

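No setting called more than 1 member in either direction. Ranked by −log10 p, 1 member was called lower (Bub1b), 5 gene ends were called higher, and the passenger complex moved to -0.59 relative to all gene ends. The number of gene ends called, 3 higher and 7 lower, was 1 and 4 with linear ranks, 0 and 2 without the filter, 0 and 2 at annotated starts, where the 2 passenger genes with a strand had -0.60, 0 and 0 with ranks among gene ends and 1 and 0 when the model held the share of intervals at gene ends, where CENP genes moved to 0.17. At the other end of the genes, where 2 members could be tested, 1 was called higher over all genes and those 2 members lay at -0.82. Leaving out a library gave 0 to 560 gene ends called higher and 1 to 127 lower, both highest without Stag2-KO replicate 3, with 152 and 112 without Stag2-WT replicate 2. It gave 0 to 1 members higher and 0 to 1 lower. The median of the CENP genes relative to all gene ends was then -0.33 to 0.11 and that of the SKA genes 0.010 to 0.42. With the replicate number as a block, 2 gene ends were called higher and 7 lower, with 0 members called, and the block changed no member's call. Members without a shared end gave medians within the spread between libraries. Of the single-gene values, those of Stag2 among them, 680 kept their side or moved by less than their spread. Another 26 moved and 4 passed the threshold (Bub1b and Bub1). For Bub1, Bub1b and Cenpc1 only the sign and the side of the threshold were judged, so a shrunken gain counted as kept. With the share of intervals at gene ends in the model, Bub1 went from 2.47 to 0.21 and Cenpc1 from 1.23 to 0.51. That share did not overlap between the genotypes, so this model cannot tell it apart from genotype. The q threshold changed nothing, since the best 100000 intervals all passed it. Read depth was unknown, so no detection limit could be given. The SE of the gain was smallest at Ska1 (0.27) and largest at Spc25 (1.29). The cause of these changes was not tested.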
